A study of Mus musculus with 12 samples.

Results

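The genes described here carry the symbols of mitochondrial ribosomal proteins. They were taken from the deposited liver count table by symbol, as every gene named Mrpl or Mrps followed by a number and at most 1 letter. This gave 78 of the 56980 genes in the table, 49 of the large class (Mrpl) and 29 of the small class (Mrps), and all 78 passed the filter on low counts. The rule used no measured value. It counts Mrps36, which is not placed in the ribosome, and leaves out 5 ribosome proteins under other symbols, given further below.

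The livers came from 12 male mice of the strain B6.Cg-Lepob/J (ob/ob, genotype Lep-/-), which lack leptin and become obese. Mice entered the study at 8 weeks of age, had free access to food, and ate chow with 25% (standard protein diet, SPD) or 5% (low protein diet, LPD) of its energy as protein for 3 weeks, so that livers were taken at 11 weeks. There were 6 separate mice per diet, and the study asked how protein restriction affects liver metabolism and steatosis. No mouse with intact leptin entered the comparison, so both diets were measured on the obese background alone. RNA was read from whole liver, and in such bulk RNA fewer cells of a type and less RNA per cell cannot be told apart.

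The mitochondrial ribosome translates the few mRNAs of the mitochondrial genome, all of which encode membrane subunits of the oxidative phosphorylation complexes. Its RNA parts, the 12S and 16S rRNAs, are transcribed from mitochondrial DNA, whereas all its proteins are encoded in the nucleus, made in the cytosol and imported. The small subunit binds and decodes the mRNA, and the large subunit joins the amino acids and guides the chain to the inner membrane. Many of its proteins descend from bacterial ribosomal proteins, and others are found in mitochondria alone. Hepatocytes are rich in mitochondria, where fatty acid oxidation, ketone body synthesis and the first steps of the urea cycle take place.

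Library totals ranged from 19374676 to 23710930 counts. The treatment and description labels of LPD replicate 1 name the 25% diet, whereas its title and library code name the low protein diet. It was kept in LPD, and results without it or with it counted as SPD are given beside the main ones. Of the LPD livers, replicates 2 and 5 had the highest summed hepatocyte markers and the lowest summed stellate cell markers of the lists below. Results without both are also given. The libraries also carry codes, SP1 and SP2 on the standard diet and LP4 and LP5 on the low protein diet. The codes do not cross the diets, so code and diet cannot be told apart. The hepatocyte markers Alb, Apoa1, Ttr, Serpina1a, Tat and Cyp2e1 were all detected, with a summed level of 72891 to 81469 CPM (the usual depth-normalised read count) in SPD and 67724 to 94622 in LPD, and 4 of the 6 rose. Some markers of other cell types moved with diet as well. The 5 cholangiocyte markers summed to 156 to 449 CPM in SPD and 43.1 to 117 in LPD, with 1 of 5 called lower. Such a sum follows the most abundant markers. The median log2 fold change of these 5 was -0.0078, so the fall of the sum was not shared by the list. Of 7 stellate cell and 7 Kupffer cell and macrophage markers, 3 and 2 were called lower, and the summed levels overlapped between diets. Of the tested markers of sinusoidal endothelium, 1 of 6 rose and 1 fell, of B and plasma cells 1 of 4 and of neutrophils 1 of 4 were called lower, and of T and NK cells 0 of 2 were called. None of the 4 adipocyte markers, Lep among them, passed the filter, and 2 of 4 pancreas markers had no count in any liver. The tested pancreas marker, Cela1, fell with no overlap between diets (-0.44 on the log2 scale, adjusted p = 0.0041). Over all tested genes, 20.7% were called higher and 19.2% lower. The part of these marker lists in the results on ribosomal proteins was not tested.

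In LPD livers, 20 of the 78 mitochondrial ribosomal protein mRNAs rose, 2 fell and 56 did not pass the test (edgeR's quasi-likelihood test with Benjamini-Hochberg adjustment over all 13768 tested genes, adjusted p under 0.05). The 20 are 25.6% of the members, against 20.7% of all tested genes that were called higher and 39.9% that were called in either direction. The 2 that fell, Mrpl16 and Mrpl10, are 2.56% of the members, against 19.2% of all tested genes that were called lower. Changes were small in nearly every member. The log2 fold change (LPD over SPD) was within 0.3 of 0 in 76 of 78 members, against 62.1% of all tested genes, and reached a size of 0.58 in 1 member, Mrpl47, against 14.3% of all tested genes. It ran from -0.27 for Mrps36 to 0.74 for Mrpl47 with a median of 0.083, and it was above 0 in 54 of 78 members (69.2%), against 49.9% of all tested genes. The SD of the log2 fold change over members was 0.16, against 0.51 over all tested genes.

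Every LPD liver lay above every SPD liver in 5 members, namely Mrpl47, Mrpl58, Mrpl3, Mrpl12 and Mrps17. That is 6.41% of the members, against 10.2% of all tested genes. In none did every LPD liver lie below every SPD liver, against 9.73% of all tested genes. The members varied little between livers of 1 diet, with a median coefficient of variation of 7.91% in SPD and 7.76% in LPD, against 11.1% and 12.5% over all tested genes. Their fold changes carried a median SE of 0.070 on the log2 scale, against 0.10 over all tested genes. These spreads were not matched for level. The members' median level was 16.3 CPM per kilobase of deposited gene length, against 4.36 over all tested genes.

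The count of members called higher changed with the livers included. With 1 library left out it was 13 to 21, and 2555 to 2803 genes in all were called higher, in place of 2850. The members' count was 15 without LPD replicate 1. It was 9 with that liver counted as SPD, where 2265 genes in all were called higher. It was 11 without LPD replicates 2 and 5 together, where 2352 genes in all were called higher. When either SPD replicate 3 or LPD replicate 2 was left out, it was 13. With library totals in place of TMM scaling, a setting chosen after the data were seen, 32 members were called higher and none lower, and over all genes the split moved from 2850 higher and 2646 lower to 3435 and 1976. Across all 23 other settings, no called member changed the sign of its fold change. Mrpl47, Mrpl3, Mrpl12, Mrps17, Mrps34 and Mrps5 were called in every one of them.

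**Figure D1:**
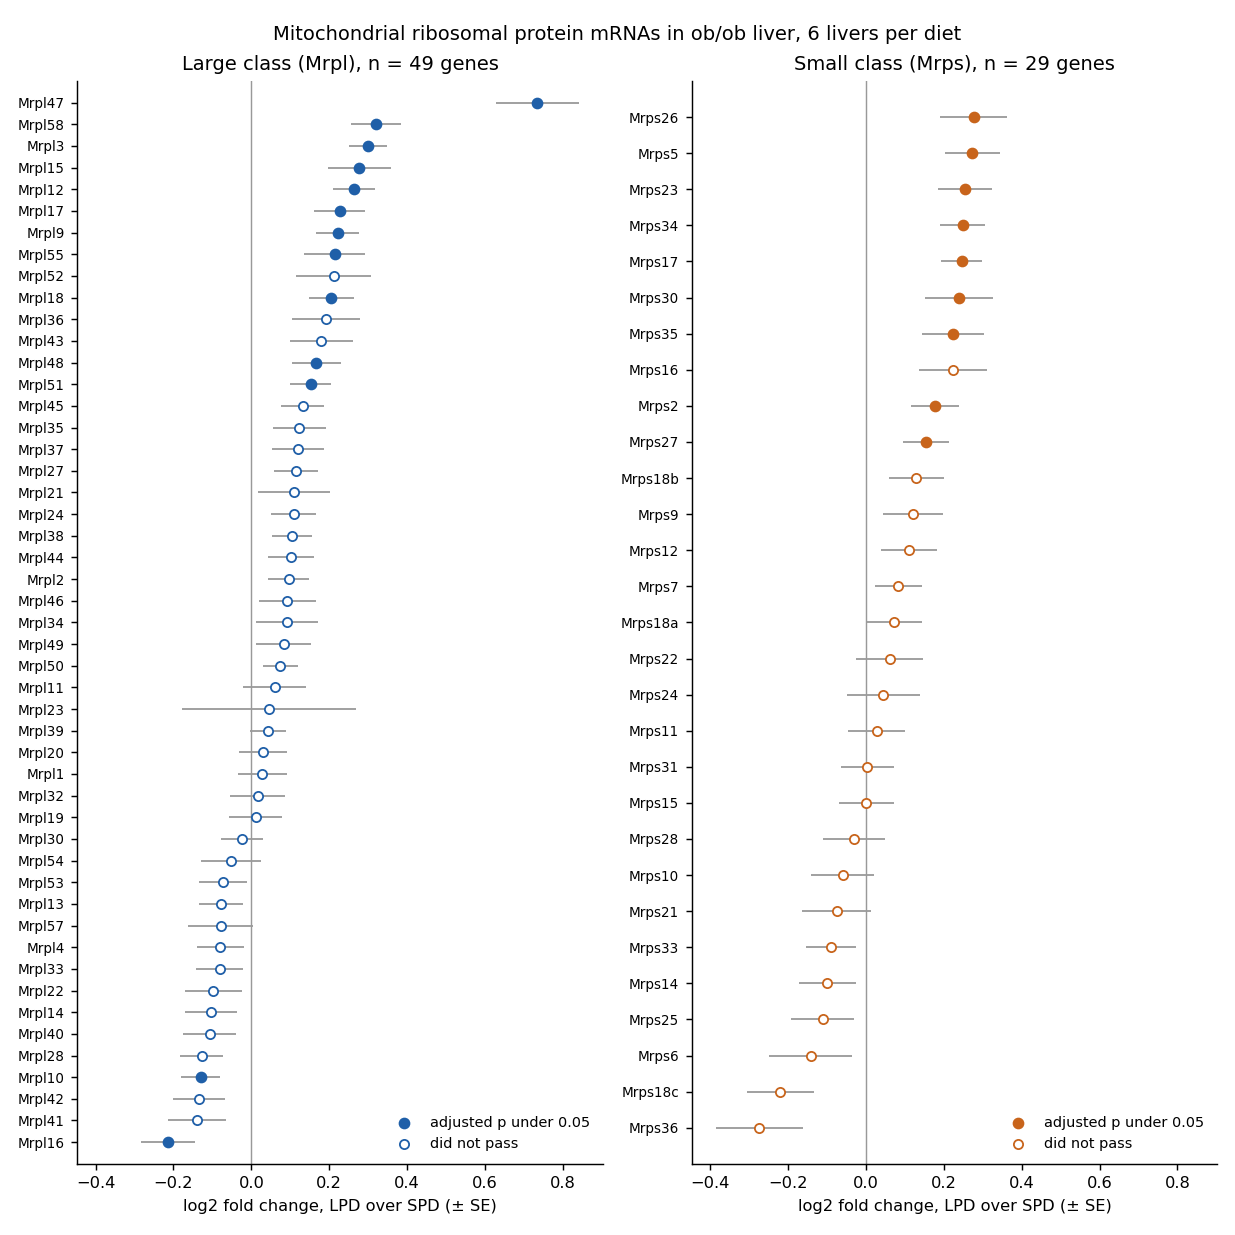
Log2 fold change (LPD over SPD, horizontal axis) of each of the 49 large class and 29 small class genes, sorted within the class, with bars for the SE. Filled points passed the test at an adjusted p under 0.05 and open points did not; Mrpl47 at 0.74 stands apart from the other members, and only Mrpl16 and Mrpl10 are filled on the left of 0.

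Among the large class, 11 of 49 mRNAs rose and 2 fell, with a median log2 fold change of 0.091. These are 22.4% and 4.08% of the class, against 20.7% and 19.2% of all tested genes. Mrpl47 (ENSMUSG00000037531, chr3:32725397-32737605, minus strand, GENCODE M21 on GRCm38) encodes the homologue of the bacterial L29 protein, which lies at the exit of the tunnel through which new chains leave. Its lowest, median and highest levels were 6.61, 8.01 and 9.86 CPM in SPD livers. In LPD livers they were 11.9, 13.1 and 16.1 CPM. The lowest LPD liver, replicate 5, thus lay above the highest SPD liver, replicate 1, and LPD replicates 2 and 6 were the highest. The mean rose from 8.16 ± 1.14 to 13.6 ± 1.77 CPM (SD, n = 6 per diet), a log2 fold change of 0.74 ± 0.11 (SE) or 1.66-fold, with an adjusted p of 7.9e-05. It ranged from 0.62 to 0.80 over the 23 other settings.

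Mrpl58, also known as Ict1, encodes a peptidyl-tRNA hydrolase that is built into the large subunit and releases chains from stalled ribosomes. Its levels were 18.5, 19.4 and 21.4 CPM in SPD livers (lowest, median, highest) and 21.7, 24.5 and 28.0 CPM in LPD livers. The diets were parted by a narrow gap, with LPD replicate 6 just above SPD replicate 4, and LPD replicate 1 was the highest of all. Mrpl58 rose by 0.32 ± 0.064 on the log2 scale (adjusted p = 0.0011), and counting LPD replicate 1 as SPD ended the call (0.20, adjusted p = 0.118). Mrpl3 encodes a core protein near the catalytic centre, and its loss of function is known to impair oxidative phosphorylation. Its groups were tight, with 21.2, 22.2 and 22.99 CPM in SPD and 25.3, 27.6 and 28.5 CPM in LPD. All LPD livers lay above all SPD livers, and the rise was 0.30 ± 0.048 on the log2 scale (adjusted p = 0.00019).

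Mrpl12 encodes the stalk protein that draws translation factors to the ribosome and has also been reported to bind the mitochondrial RNA polymerase. It stood at 61.5, 65.4 and 69.5 CPM in SPD livers and at 71.6, 78.9 and 85.0 CPM in LPD livers. The groups did not overlap, with LPD replicate 6 the lowest LPD liver. The mean went from 65.7 ± 3.31 to 78.9 ± 4.93 CPM (SD, n = 6), a rise of 0.26 ± 0.053 on the log2 scale (adjusted p = 0.0012). Mrpl15 and Mrpl17, homologues of bacterial L15 and L17, rose by 0.28 ± 0.080 and 0.23 ± 0.066 on the log2 scale (adjusted p = 0.0122 and 0.0121). Their diets overlapped: 5 of 6 LPD livers for Mrpl15 and 4 of 6 for Mrpl17 lay above the highest SPD liver. The other 5 that rose were Mrpl9, Mrpl55, Mrpl18, Mrpl48 and Mrpl51, with log2 fold changes of 0.15 to 0.22.

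Mrpl16 and Mrpl10 were the members that fell. Mrpl16 (chr19:11770391-11774960, plus strand), the homologue of bacterial L16, stood at 44.4, 54.6 and 61.8 CPM in SPD livers and at 43.3, 46.4 and 50.9 CPM in LPD livers. The groups overlapped, since SPD replicate 3 lay as low as the LPD livers. The fold change was -0.21 ± 0.070 on the log2 scale (adjusted p = 0.0234), and Mrpl16 was called in 15 of the 23 other settings. Mrpl10 encodes the stalk base to which Mrpl12 binds. Its log2 fold change was opposite in sign to that of Mrpl12, at -0.13 ± 0.050 (adjusted p = 0.0497). In 5 of 6 LPD livers it lay below the lowest SPD liver, from 36.6 to 43.0 CPM in LPD against 42.9 to 46.9 CPM in SPD. Mrpl10 was called in 6 of the 23 other settings.

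**Figure D2:**
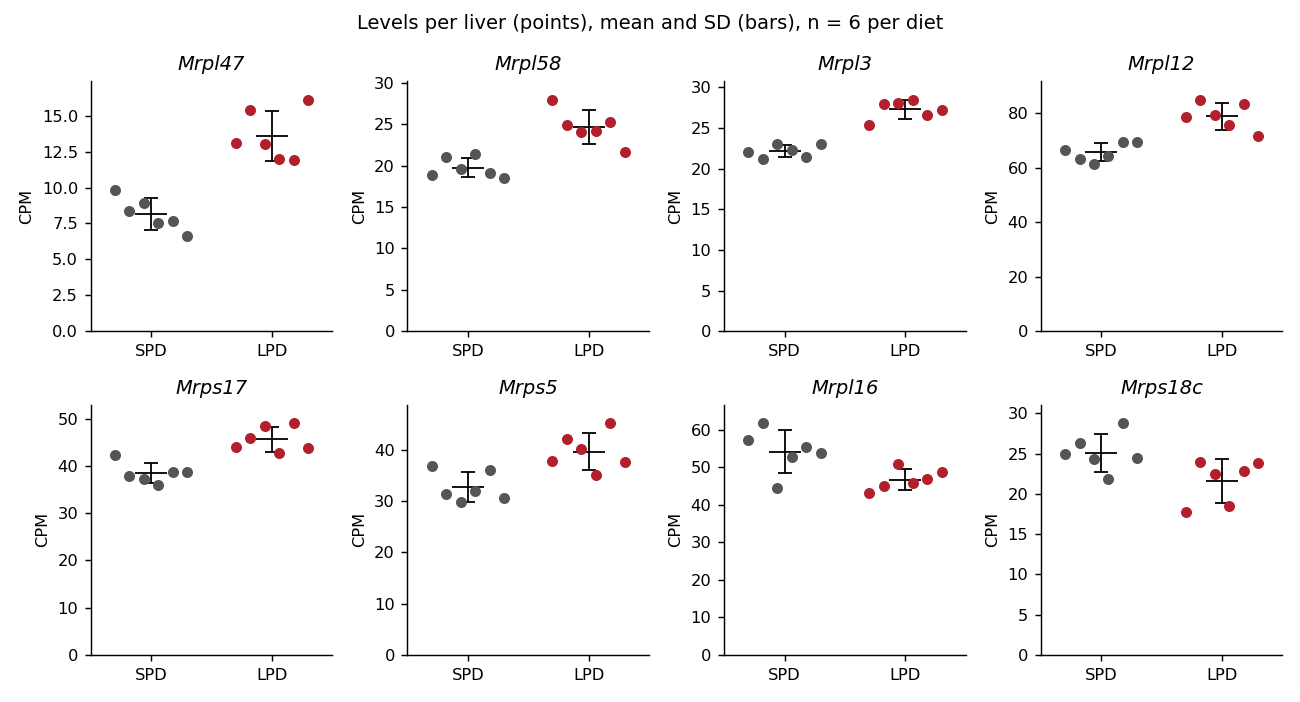
Level in CPM (vertical axis, from 0) of 8 members in each of the 6 SPD (grey) and 6 LPD (red) livers, with the mean and SD as bars. Mrpl47, Mrpl58, Mrpl3, Mrpl12 and Mrps17 show no overlap between diets, Mrps5 and Mrpl16 overlap but passed the test, and Mrps18c overlaps and did not pass.

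The promoters of the called members with the largest rise and the largest fall are given here, with those of 2 members whose diets did not overlap, to show windows with and without the motif letters that were counted over all members. Each is the window of 250 bases before to 50 bases after the gene's RefSeq start on GRCm38.p6, on the strand of the gene. The window of Mrpl47 does not reach its GENCODE start at 32737605. Capitals mark CCGGAAG in Mrpl58 and, in Mrpl12, the NRF1 palindrome (GCGC, any base, TGCGC), and the windows of Mrpl47 and Mrpl16 hold none of the 6 motifs searched. They lie at chr3:32736706-32737005 (minus strand, Mrpl47), chr11:115403502-115403801 (plus strand, Mrpl58), chr11:120484387-120484686 (plus strand, Mrpl12) and chr19:11770165-11770464 (plus strand, Mrpl16).
Mrpl47: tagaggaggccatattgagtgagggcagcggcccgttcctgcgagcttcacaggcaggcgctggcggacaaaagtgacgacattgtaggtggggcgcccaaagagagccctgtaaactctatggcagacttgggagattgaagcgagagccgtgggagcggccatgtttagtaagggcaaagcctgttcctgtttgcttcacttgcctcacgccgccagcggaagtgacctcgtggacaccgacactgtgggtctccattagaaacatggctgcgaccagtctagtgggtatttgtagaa
Mrpl58: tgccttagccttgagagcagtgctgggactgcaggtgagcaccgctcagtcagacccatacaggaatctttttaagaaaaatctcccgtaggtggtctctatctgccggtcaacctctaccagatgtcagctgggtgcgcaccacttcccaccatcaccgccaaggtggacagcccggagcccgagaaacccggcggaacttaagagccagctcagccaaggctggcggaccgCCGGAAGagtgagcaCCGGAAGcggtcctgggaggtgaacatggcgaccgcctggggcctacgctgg
Mrpl12: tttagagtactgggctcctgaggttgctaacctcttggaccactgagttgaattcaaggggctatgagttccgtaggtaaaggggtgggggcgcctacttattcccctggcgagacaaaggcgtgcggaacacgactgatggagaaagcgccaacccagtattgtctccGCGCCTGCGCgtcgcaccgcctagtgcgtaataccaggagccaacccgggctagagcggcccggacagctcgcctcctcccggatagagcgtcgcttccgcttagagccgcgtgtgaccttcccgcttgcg
Mrpl16: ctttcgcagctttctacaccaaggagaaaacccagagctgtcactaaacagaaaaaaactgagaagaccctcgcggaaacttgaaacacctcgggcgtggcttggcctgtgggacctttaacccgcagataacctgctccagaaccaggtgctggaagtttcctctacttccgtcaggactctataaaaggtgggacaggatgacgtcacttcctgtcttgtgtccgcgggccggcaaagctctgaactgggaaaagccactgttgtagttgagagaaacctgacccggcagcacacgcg

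Among the small class, 9 of 29 mRNAs rose, with a median log2 fold change of 0.072. The 9 are 31.0% of the class, and of all tested genes 20.7% were called higher and 19.2% lower. By edgeR's test 0 of the 29 fell, 2 had an unadjusted p under 0.05 in that direction, and DESeq2 and limma-voom called 1 and 2 lower. Mrps17, the homologue of bacterial S17, stood at 35.95, 38.3 and 42.4 CPM in SPD livers and at 42.8, 45.0 and 49.0 CPM in LPD livers. It was the small class member with no overlap between diets, although LPD replicate 4 and SPD replicate 1 lay close together. It rose by 0.25 ± 0.053 on the log2 scale (adjusted p = 0.0020). Mrps5, whose bacterial counterpart S5 lies at the mRNA entry site, stood at 29.8, 31.6 and 36.9 CPM in SPD and at 35.2, 38.9 and 45.2 CPM in LPD. Here 5 of 6 LPD livers lay above the highest SPD liver, and the rise was 0.27 ± 0.071 on the log2 scale (adjusted p = 0.0066).

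Mrps26, Mrps23 and Mrps34 encode proteins of the small subunit with no bacterial counterpart. Mrps26 rose by 0.28 ± 0.086, Mrps23 by 0.25 ± 0.070 and Mrps34 by 0.25 ± 0.058 on the log2 scale (adjusted p = 0.0183, 0.0095 and 0.0033). In each of the 3, 5 of 6 LPD livers lay above the highest SPD liver. Mrps34, which is needed for a stable small subunit, stood at 41.2, 43.5 and 49.96 CPM in SPD livers and at 47.8, 52.6 and 58.04 CPM in LPD livers. LPD replicate 6, the lowest of its diet, lay below SPD replicate 1. Mrps26 was called in 20 of the 23 other settings and lost its call without LPD replicates 2 and 5 (0.19, adjusted p = 0.106). The other small class genes that rose, beside Mrps30 described next, were Mrps2, Mrps27 and Mrps35.

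Symbols do not always tell where a protein sits. Mrps30 and Mrps18a are built into the large subunit in mammals, and Mrps36 is known as a part of the 2-oxoglutarate dehydrogenase complex of the citric acid cycle. Mrps30 rose by 0.24 ± 0.087 on the log2 scale (adjusted p = 0.0388), from 16.6 ± 1.70 to 19.5 ± 2.30 CPM (SD, n = 6), and was called in 13 of the 23 other settings. Mrps18a did not pass (0.072 ± 0.071, adjusted p = 0.453). Mrps36 had the most negative fold change of all members, at -0.27 ± 0.11 on the log2 scale, and did not pass (adjusted p = 0.0619). Its levels were 8.10, 9.98 and 10.7 CPM in SPD livers and 6.17, 8.48 and 9.34 CPM in LPD livers, and 3 of 6 LPD livers lay below the lowest SPD liver. Mrps36 passed the test in 6 of the 23 other settings, among them the one without LPD replicates 2 and 5 (-0.36, adjusted p = 0.0334).

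Mrps18a, Mrps18b and Mrps18c descend from 1 bacterial protein, S18, and occupy different places in the ribosome. Their fold changes differed in sign, as they did in all 23 other settings, though none passed: 0.072 for Mrps18a, 0.13 ± 0.071 for Mrps18b (adjusted p = 0.163) and -0.22 ± 0.086 for Mrps18c (adjusted p = 0.0529). Mrps18c stood at 21.8, 24.7 and 28.8 CPM in SPD livers and at 17.7, 22.7 and 23.9 CPM in LPD livers. LPD replicates 1 and 4 were the low ones, and the other LPD livers lay within the SPD range. It passed the test in 9 of the 23 other settings, among them the one without LPD replicates 2 and 5 (-0.28, adjusted p = 0.0338). With LPD replicate 1 counted as SPD the log2 fold change of Mrps18c was -0.11 (adjusted p = 0.453). The difference between the 3 fold changes was not tested.

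The medians of the large and small classes lay close together. The median log2 fold change of the large class exceeded that of the small class by 0.019, and this difference had the opposite sign under limma-voom (-0.012), in the subset with codes SP1 and LP4, 4 libraries per diet (-0.022), and without SPD replicate 5 (-0.0038). Placing Mrps18a and Mrps30 with the large subunit and Mrps36 with none gave 12 of 51 higher and 2 lower in the large subunit, and 8 of 26 higher and 0 lower in the small subunit. Grouping by descent gave 10 of 47 higher and 2 lower among proteins with a homologue among bacterial ribosomal proteins, at a median of 0.060. Those without such a homologue, Mrpl58 among them, are called mitochondria-specific here. They gave 10 of 30 higher and 0 lower, at a median of 0.10. Of these 30, 0 had an unadjusted p under 0.05 in the lower direction, and DESeq2 and limma-voom called 0 and 1 lower. Within the small class, 6 of the 10 mitochondria-specific members rose (median 0.19), against 3 of 18 with a bacterial homologue (median 0.058). Within the large class the counts were 4 of 20 (median 0.097) and 7 of 29 (median 0.060). Beside these counts, 20.7% of all tested genes were called higher and 19.2% lower. No test was made of the splits by class and descent, which describe the members only.

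Class levels were also taken per liver, as the mean log2 CPM over the class. The large class mean was 4.46 to 4.60 in SPD livers, and 4.54 to 4.70 in LPD livers. For the small class, SPD livers spanned 4.27 to 4.44 and LPD livers 4.35 to 4.55. Both ranges overlapped. LPD replicates 4 and 6 lay within the SPD range for both classes and LPD replicates 1 and 3 for the small class, and LPD replicate 2 was the highest liver for both. LPD replicate 2 held the highest of the 12 values for 31 of 78 members, and SPD replicate 3 the lowest for 23. The large minus small difference within a liver was 0.13 to 0.20 in SPD and 0.15 to 0.19 in LPD. The large class mean was the higher one in every liver, and the range of the difference overlapped between diets. As a share of all counts of a library, the members took 0.189% to 0.199% in SPD livers and 0.203% to 0.218% in LPD livers. These shares of raw counts did not overlap, whereas the summed levels after TMM scaling did (1869 to 2069 CPM in SPD and 1988 to 2241 CPM in LPD).

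Both rRNAs of the mitochondrial ribosome fell in LPD livers. The 12S rRNA mt-Rnr1 stood at 246, 321 and 392 CPM in SPD livers and at 135, 164 and 206 CPM in LPD livers. The 16S rRNA mt-Rnr2 stood at 302, 418 and 503 CPM in SPD and at 169, 185 and 231 CPM in LPD. Neither overlapped between diets, and SPD replicate 2 was the lowest SPD liver for both. mt-Rnr1 fell by 0.93 ± 0.12 and mt-Rnr2 by 1.07 ± 0.12 on the log2 scale (adjusted p = 3.4e-05 and 1.0e-05), and both were called in all 23 other settings. The labels give total RNA as the extract and do not say how RNA was selected for the libraries, so rRNA counts may depend on the selection as well as on the level. Nuclear copies of mitochondrial DNA can share such reads too.

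**Figure D3:**
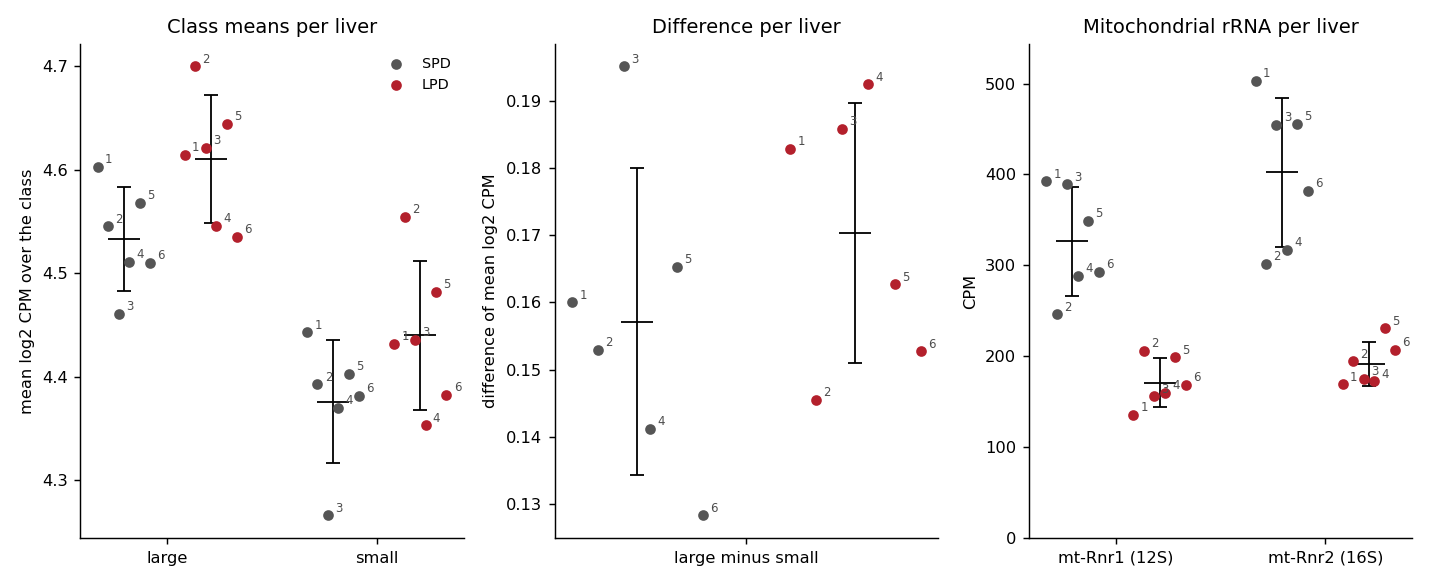
Left, mean log2 CPM of the large and the small class in each liver; middle, their difference; right, CPM of mt-Rnr1 and mt-Rnr2 from 0. Points are livers with their replicate number, grey for SPD and red for LPD, bars give the mean and SD (n = 6); class means overlap between diets, and both rRNAs lie lower in all 6 LPD livers.

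Levels of different members were compared per kilobase of the deposited gene length. The median over the 78 members was 16.3 CPM per kb, with 19.7 in the large class and 14.6 in the small class, against 4.36 CPM per kb over all tested genes. Members spanned from 2.70 to 72.3 CPM per kb, although each mitochondrial ribosome holds most of its proteins as single copies. By the mean over both diets Mrps21 was the highest, at 74.1 ± 9.56 CPM per kb in SPD and 70.4 ± 7.11 in LPD (SD, n = 6), followed by Mrpl30, at 72.1 ± 3.18 and 71.0 ± 4.86. These neighbours did not differ beyond their spread, and Mrpl30 was the higher one in LPD. Neither passed the test (-0.075 and -0.024 on the log2 scale, adjusted p = 0.534 and 0.76). By the same mean, the lowest of the small class was Mrps26, at 2.44 ± 0.20 in SPD and 2.96 ± 0.33 in LPD, and the lowest of the large class Mrpl19, at 2.84 ± 0.22 and 2.86 ± 0.17 CPM per kb. The order at the bottom differed by diet: Mrpl47 was the lowest member in SPD, at 2.43 ± 0.34, and Mrps25 in LPD, at 2.84 ± 0.26 CPM per kb. Mrpl19 gave 0.012 ± 0.068 on the log2 scale (adjusted p = 0.91). A level per kb depends on the deposited length, which is 4278 bases for Mrps26 and 5000 for Mrpl19, against 405 for Mrps21.

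For Mrpl23, the level in the table cannot be read as that of the gene alone. Mrpl23 was listed at 2.08 ± 0.70 CPM in SPD and 2.15 ± 0.46 in LPD, and it had the largest SE of all members (0.046 ± 0.22 on the log2 scale, adjusted p = 0.894). A processed copy, Mrpl23-ps1, was listed at 18.1 ± 1.46 CPM in SPD and 20.7 ± 2.23 in LPD, and held 85.2% to 94.1% of the counts of the pair in each liver. All 438 coding bases of Mrpl23 occur unbroken in the transcript of that copy, so reads from them cannot be told apart. The first 60 coding bases, shared in full, are shown here as they stand in the GENCODE M21 transcript.
Mrpl23: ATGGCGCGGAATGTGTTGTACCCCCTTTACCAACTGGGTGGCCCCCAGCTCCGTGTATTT
With both joined, the pair stood at 20.1 ± 1.62 CPM in SPD and 22.8 ± 2.64 in LPD, and did not pass (0.18 ± 0.080 on the log2 scale, adjusted p = 0.0878). Mrpl23 and its copy were singled out after their values were seen. In all, 18 members have 22 such copies with at least 95% identity over 300 bases, and Mrpl23-ps1 was the only copy with a mean of at least 1 CPM.

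Many members lie against other genes. In GENCODE M21, 28 of the 78 share exon bases with a gene on the opposite strand, 17 of them with a gene that was itself tested, and 8 share bases with a gene on the same strand. Among the 22 called members, 12 share bases with a gene on the opposite strand. Whether the authors' counting used strand is not given in the sources used here, so such reads may be assigned to either gene. Of the 44 members with no shared exon and no expressed copy, 8 rose and 1 fell. Beside that, 20.7% of all tested genes were called higher and 19.2% lower. Mrpl47 shares 452 exon bases with Actl6a and 616 with Ndufb5, both on the opposite strand. These neighbours did not pass, with log2 fold changes of 0.14 (adjusted p = 0.0716) and 0.11 (adjusted p = 0.279). The shared bases of Mrpl47 were counted with its GENCODE start at 32737605, and its RefSeq window ends short of that, at 32737005. Mrps34 shares 63.4% of its exon bases with Mapk8ip3 on the opposite strand and 37% with Nme3 on the same strand, and both rose, by 0.27 and 0.42 on the log2 scale (adjusted p = 0.0295 and 0.0128). Mrpl18, which rose by 0.21, shares 141 exon bases with Tcp1, a chaperonin subunit that rose by 0.27 (adjusted p = 0.00023). Mrpl43, which did not pass (0.18, adjusted p = 0.0895), shares 507 bases with Twnk, the mitochondrial DNA helicase, which rose by 0.36 (adjusted p = 0.0051).

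For 37 members another gene starts within 1000 bases on the other strand. Of 31 such partners that were tested, 9 rose and 2 fell, against 20.7% and 19.2% of all tested genes. Mrpl46 of the large class and Mrps11 of the small class form such a pair with each other on chromosome 7, with GENCODE M21 starts 412 bases apart. Mrpl46 stood at 13.7 ± 1.51 CPM in SPD and 14.6 ± 0.64 in LPD, and Mrps11 at 15.2 ± 0.53 and 15.5 ± 1.68 (SD, n = 6). Neither passed (0.093 and 0.027 on the log2 scale, adjusted p = 0.342 and 0.796). The window of Mrps11 (chr7:78782881-78783180, plus strand, RefSeq on GRCm38.p6) is shown, which overlaps the RefSeq window of Mrpl46 (chr7:78783040-78783339). It does not reach the GENCODE start of Mrpl46 at 78783531. Capitals mark AAGATGGC on the reverse strand, read as GCCATCTT, and GGGCGG.
Mrps11: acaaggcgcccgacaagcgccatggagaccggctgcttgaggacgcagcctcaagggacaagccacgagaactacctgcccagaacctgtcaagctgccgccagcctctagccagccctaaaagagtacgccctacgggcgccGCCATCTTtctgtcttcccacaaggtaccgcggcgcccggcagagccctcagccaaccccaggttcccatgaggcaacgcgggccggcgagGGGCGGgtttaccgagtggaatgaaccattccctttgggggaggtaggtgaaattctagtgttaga

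The promoter windows were searched on both strands for 6 motifs, with overlapping matches allowed. RefSeq windows were found for 69 of 78 members, 75 windows in all, and 32851 windows of the same length made up the whole table. Members without one were Mrpl38, Mrpl54, Mrps28, Mrps34, Mrpl15, Mrpl13, Mrps35, Mrpl4 and Mrpl19. The core of ETS factors such as GABP, CCGGAAG, stood in 34.7% of members' windows and 8.86% of all windows. The palindrome of NRF1 (GCGC, any base, TGCGC) stood in 17.3% and 4.60%, and the core of YY1, AAGATGGC, in 16% and 2.75%. GGGCGG, read by Sp1, stood in 52% and 35.7%, and CCAAT in 40% and 37.4%. TGATGNAA, a short form of the element read by C/EBP and ATF4 dimers, stood in none of the members' windows and in 3.97% of all windows. Among members with a window, CCGGAAG occurred in 9 of 17 that rose, 0 of 2 that fell and 17 of 50 that did not pass, the NRF1 palindrome in 4 of 17, 0 of 2 and 9 of 50, and AAGATGGC in 1 of 17, 0 of 2 and 11 of 50. The set of all windows was not limited to tested genes and was not matched to the members for base content. A match gives the letters only, and no binding was measured.

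The deposited gene length went with the fold change among members. Of the 39 members longer than the members' median of 1324 bases, 16 rose and 1 fell, at a median log2 fold change of 0.12. Of the 39 others, 4 rose and 1 fell, at a median of 0.00057. Over all tested genes the same cut gave medians of 0.0035 above and -0.019 below, with 21.2% and 17.9% called higher. Spearman's rho between length and log2 fold change over the 78 members was 0.43 (Pearson's r with log10 length 0.42), over the same 12 libraries for every gene. It was 0.35 in the large class (n = 49), 0.54 in the small class (n = 29) and 0.42 without Mrpl47, against -0.0094 over all 13768 tested genes. For the cytosolic ribosomal proteins (n = 77) rho was positive too, at 0.23, so its sign is not particular to the members. With the longest coding length of GENCODE M21 it was 0.30 over the members, and with the union of exons 0.27. Called higher members had a median length of 3342 bases and those that did not pass 1121 bases. Genes are not independent replicates, and what the deposited length counts is not given in the sources used here.

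**Figure D4:**
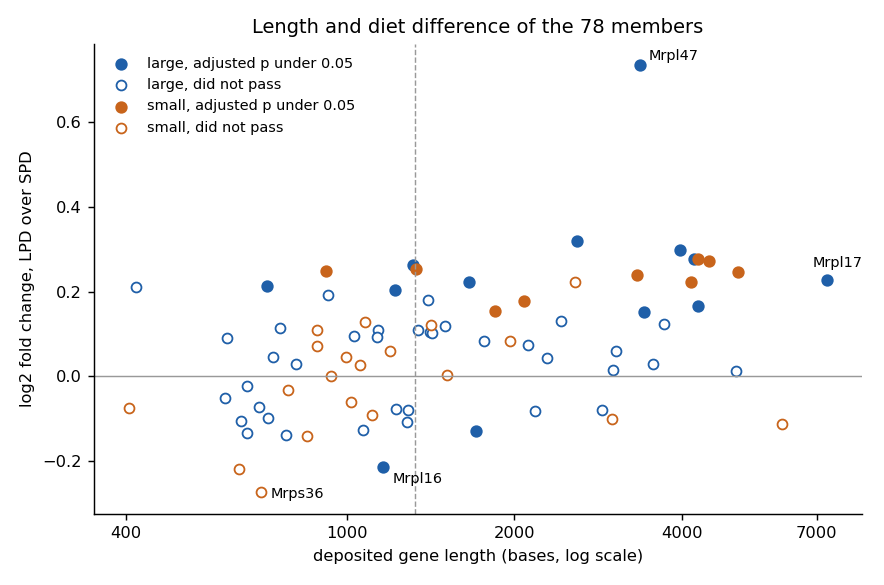
Deposited gene length in bases (horizontal log axis) against log2 fold change (LPD over SPD) for the 78 members, blue for the large and orange for the small class, filled where the adjusted p was under 0.05. The dashed line is the median length of 1324 bases; 16 of the 20 members that rose lie to its right.

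Other genes of mitochondrial translation were read from lists drawn up by role. Not every listed symbol was found in the deposited counts. Found and tested were 28 of 34 assembly factors, 18 of 21 genes of transcription and RNA processing and 17 of 18 translation factors. For every count given for these lists, the share of all tested genes was 20.7% called higher and 19.2% called lower. Of 5 ribosome proteins whose symbols are not Mrpl or Mrps, 0 rose and 1 fell (edgeR; 1 was higher at an unadjusted p under 0.05, and DESeq2 and limma-voom called 0 higher). This was Dap3, a GTP-binding protein of the small subunit, at 32.0 ± 1.56 CPM in SPD and 27.1 ± 2.83 in LPD (-0.24 ± 0.066 on the log2 scale, adjusted p = 0.0089). Of 17 translation factors, 3 rose and 2 fell. Oxa1l, which inserts the new chains into the inner membrane, rose by 0.21 ± 0.048, and Pdf, which removes the formyl group from the first residue, rose by 0.39 ± 0.12 (adjusted p = 0.0030 and 0.0175). Tufm, the elongation factor that brings the charged tRNA, stood at 85.4, 90.7 and 96.1 CPM in SPD livers and at 71.1, 79.1 and 82.8 CPM in LPD livers. All LPD livers lay below all SPD livers, and its log2 fold change was -0.23 ± 0.053 (adjusted p = 0.0033). Mtfmt, which adds the formyl group to the initiator tRNA, gave -0.27 ± 0.10 (adjusted p = 0.0498) and was called in 6 of the 23 other settings.

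Of 28 factors that assemble the mitochondrial ribosome, 13 rose and 3 fell, at a median log2 fold change of 0.17. The shares of all tested genes called higher and lower were 20.7% and 19.2%. Mterf3, a mitochondrial transcription terminator family member that also acts in ribosome assembly, stood at 7.94, 10.1 and 10.7 CPM in SPD livers and at 14.0, 15.4 and 16.4 CPM in LPD livers. It rose by 0.65 ± 0.077 with no overlap between diets (adjusted p = 1.3e-05). Mettl17, which acts on the small subunit, rose by 0.69 ± 0.12 (adjusted p = 0.00029). The pseudouridine synthase Trub2 and Nsun4, a methyltransferase of the 12S rRNA, fell by 0.32 ± 0.062 and 0.33 ± 0.087 on the log2 scale (adjusted p = 0.00087 and 0.0073). Of 18 genes of mitochondrial transcription and RNA processing, 8 rose and 1 fell. Mtpap, the mitochondrial poly(A) polymerase, rose by 0.41 ± 0.070 and Trmt10c, a subunit of mitochondrial RNase P, by 0.39 ± 0.077 (adjusted p = 0.00032 and 0.00085), whereas Mterf2 gave -0.52 ± 0.19 (adjusted p = 0.0398).

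Of the 13 mRNAs that the mitochondrial ribosome translates, 0 rose and 4 fell, with a median log2 fold change of -0.21. Among them, mt-Atp6, a subunit of the ATP synthase, went from 899 ± 55.8 to 662 ± 74.0 CPM (-0.44 ± 0.075 on the log2 scale, adjusted p = 0.00030). mt-Nd2, a subunit of complex I, went from 5097 ± 510 to 3844 ± 409 CPM (-0.41 ± 0.088, adjusted p = 0.0019). Of 10 regulators of nuclear genes for mitochondrial proteins, 5 rose and 0 fell. Pprc1, a coactivator related to PGC-1 alpha, rose by 0.67 ± 0.11, and Nrf1, the factor that reads that palindrome, rose by 0.58 ± 0.11 on the log2 scale (adjusted p = 0.00029 and 0.00084). Of 77 proteins of the cytosolic ribosome, 69 rose and 0 fell, at a median log2 fold change of 0.27, beside 20 of 78 and 0.083 for the mitochondrial one, and the difference was not tested. For these 3 lists with a count of 0, edgeR gave 0 in that direction at an unadjusted p under 0.05 too, and DESeq2 and limma-voom called 0.

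**Figure D5:**
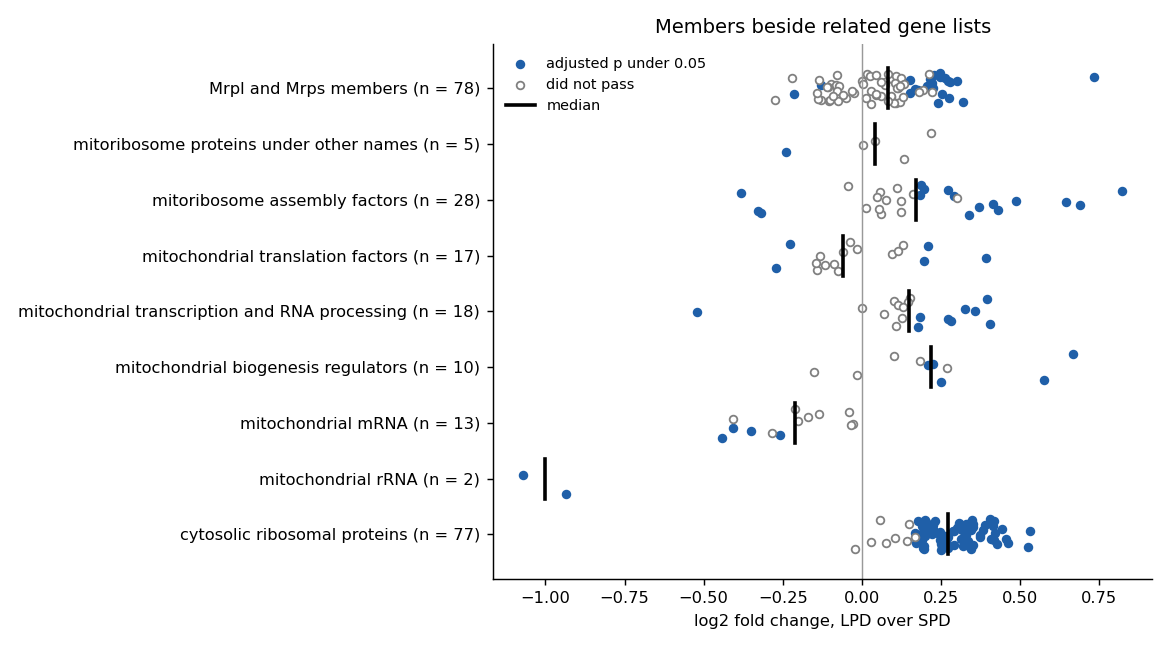
Log2 fold change (LPD over SPD, horizontal axis) of every tested gene in the member set and in 8 related lists, 1 row per list, with the median as a black bar. Filled points had an adjusted p under 0.05; the medians are 0.083 for the members, -1.003 for the 2 mitochondrial rRNAs and 0.27 for the cytosolic ribosomal proteins.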

How the data were processed

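RNA of 12 ob/ob livers, 6 per diet, was extracted with TRIzol and DNase I, and libraries came from a TruSeq RNA kit, per the labels' protocols. TopHat, DESeq2 and mm10 are named in the submitters' processing notes without role or version. In the sources used here, nothing is said on the counting program, annotation release, strand or reads that fit several genes. The table deposited by the authors holds 1 column of expected counts (estimated counts, not scaled between libraries) per liver for 56980 genes, and 18% of nonzero values are not whole. Deposited symbols and gene lengths were used as given.

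Counts were rounded, filtered with filterByExpr (minimum count 10, minimum total 15; 13768 genes left), scaled by TMM and tested with edgeR 4.0.16 in R 4.3.3 by the quasi-likelihood F test of LPD against SPD without covariates. Benjamini-Hochberg adjustment covered every tested gene, and genes were called at an adjusted p under 0.05. The SE of a log2 fold change was taken as its size over the root of F. CPM used TMM-scaled totals, and mean log2 CPM a prior count of 2. The script was tested on simulated counts. Positions and shared exons came from GENCODE M21 on GRCm38, copies from a BLAST search of its transcripts, and promoters from RefSeq on GRCm38.p6. Proteins were placed by descent and subunit from general knowledge.

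Members and lists were chosen with earlier results of these data known. Named in each class were the up to 6 called members with the largest rise and the up to 6 with the largest fall, the highest and lowest per kb, Mrps18a, Mrps18b, Mrps18c, Mrps30, Mrps36, Mrpl12 and Mrpl58, and in each related list the 2 called genes with the smallest adjusted p in each direction. Mrpl23, Mrpl18, Mrpl43, Mrpl46, Mrps11, Mrps25, Cela1 and neighbouring genes were named after their values were seen. The 23 other settings were edgeR with DESeq2 size factors, upper quartile scaling, library totals alone (added after the data were seen), no filter, or 1 CPM in 6 libraries, DESeq2 1.42.0, limma-voom (limma 3.58.1) with sample weights, a block for the replicate number, leaving out each of 12 libraries, LPD replicate 1 counted as SPD, codes SP1 and LP4 only, and LPD replicates 2 and 5 left out. Joining Mrpl23 with its copy was also added after the data were seen.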

Additional observations from a re-analysis of the deposited data

Results flagged for a closer look

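In each diet, the 6 livers were compared for each of the 78 members, the 2 rRNAs, and the class means and their difference, 166 groups in all. In 7 of them, each a member in 1 diet, 1 liver lay apart from the other 5 by more than Dixon's 95% critical value of 0.625, and chance gives about 1 such group in 20. LPD replicate 2 was high in Mrps16, at 14.45 CPM against 11.8 to 11.9 in the other LPD livers, and in Mrpl43, at 38.27 CPM against 27.1 to 30.8. SPD replicate 3 was low in Mrpl52, at 7.148 CPM against 9.38 to 10.3 in the other SPD livers, and in Mrps35, at 16.39 CPM against 18.7 to 20.03. The other 3 were Mrpl28 in LPD replicate 4, at 22.71 CPM against 26.01 to 27.5, Mrpl57 in LPD replicate 3, at 9.287 CPM against 10.7 to 11.5, and Mrpl50 in SPD replicate 6, at 41.84 CPM against 45.1 to 46.7. Of these 7 members, Mrps35 was called higher in LPD.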

How the results depend on the processing

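The members' median log2 fold change stayed above 0 in each setting run, from 0.049 without LPD replicates 2 and 5 to 0.13 with library totals alone, and at 0.068 to 0.10 with 1 library left out. Leaving out 1 library gave 13 to 21 members called higher, 0 to 3 lower, 8 to 13 of the large class and 5 to 9 of the small class higher, a large minus small median difference of -0.0038 to 0.025, 22 to 28 related genes higher and 11 to 14 lower, 16.2 to 16.5 CPM per kb, and 2555 to 2803 genes higher and 2391 to 2653 lower in all. With LPD replicate 1 counted as SPD, 9 members were called higher (5 large, 4 small) and 1 lower, and 8 related genes lower in place of 13. With codes SP1 and LP4 only, which leaves 4 livers per diet, 9 were called higher (5 large, 4 small) and 0 lower, with 1827 genes higher and 1693 lower in all, 18 related genes higher in place of 29, and a class difference of -0.022. Without LPD replicates 2 and 5, 11 were called higher (6 large, 5 small), and 18 related genes higher. Library totals alone gave 32 higher (21 large) and 0 lower. Lower calls numbered 1 with no filter and 4 with limma-voom, which also gave a class difference of -0.012. The cause of these shifts was not tested. Signs turned in members that passed in no setting: Mrpl19 (-0.0032 with upper quartile scaling, -0.023 to 0.034 with 1 library left out, -0.017 without LPD replicates 2 and 5), Mrpl30 (0.025 with library totals, 0.00068 with codes SP1 and LP4), Mrpl23 (-0.062 to 0.23 with 1 library left out, -0.075 with LPD replicate 1 as SPD) and Mrps11 (-0.0059 to 0.082 with 1 library left out, -0.0067 without LPD replicates 2 and 5). Deviations of same-numbered livers from their diet means correlated weakly (r -0.054 to 0.097), and no pairing was read from the numbers. Of the 6 SPD livers, 2 correlated best with the LPD liver of their own number. With the replicate number as a block, 17 members were called higher and 2 lower, and over all genes 2668 and 2562. The 2 lower were Mrps36 and Mrps18c (adjusted p = 0.0427 and 0.0265), and Mrpl16 and Mrpl10 lost their calls (adjusted p = 0.0613 and 0.096). The SE of Mrpl23 was 0.22 alone and 0.080 joined with its copy.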
